A study of Mus musculus with 6 samples.

Results

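Cdk1, Cdc25c, Plk1, Nek2, Aurka, Tpx2, Aurkb, Birc5, Cdca8 and Incenp encode the kinases that drive cells through mitosis, the direct activators of some of them, and the subunits of the chromosomal passenger complex. They were taken by gene symbol, as all probe sets whose annotation gives exactly one of these names, which yielded 25 probe sets for the 10 genes among 45037 probe sets tested and 18193 named genes. The RNA came from C2C12, an established mouse myoblast line whose cells leave the cell cycle when denied attachment and form myotubes on differentiation, and was profiled on 6 Affymetrix mouse arrays. In the group labelled PRDM2 KD S48 the cells were a stable pool expressing an shRNA to PRDM2, a member of the PR domain family of zinc finger proteins, and in the group labelled GFP S48 a stable pool expressing a control shRNA to GFP, with 3 arrays each. Both pools were kept for 48 hours in methylcellulose suspension with 20% fetal calf serum, which the labels call G0 arrest, and the question of the comparison is how transcripts of quiescent myoblasts differ when PRDM2 is reduced. Each group is represented by a single pool, and nothing in the labels says that the 3 biological replicates came from separate transfections, so the p-values measure the spread between these samples.

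Cdk1 bound to cyclin B is the kinase that starts mitosis, and the phosphatase Cdc25c activates it by removing inhibitory phosphates. Plk1 promotes entry into mitosis, centrosome maturation and cytokinesis, and Nek2 separates the centrosomes. Aurora A, the product of Aurka, is activated on spindle microtubules by Tpx2. Aurora B, the product of Aurkb, works in the chromosomal passenger complex with survivin (Birc5), borealin (Cdca8) and the scaffold Incenp, which corrects attachments of chromosomes to the spindle and later acts in cytokinesis. Transcripts of these genes are low in quiescent cells and peak in G2 and mitosis, and in mammalian cells many of their promoters are known to carry CCAAT boxes, bound by NF-Y, and cell cycle genes homology regions (CHR), bound by the DREAM complex in quiescence and by B-Myb and FoxM1 complexes in dividing cells.

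Because members of this group fell together, the 100 bases before the start site are shown for the members that the RefSeq promoter table of GRCm38.p6 holds. That table held 6 of the 10, and Cdc25c, Tpx2, Aurkb and Incenp had no entry in it. Capitals mark matches, on either strand, to TTTGAA, the CHR core, and to CCAAT, and the sequences run 5′ to 3′ on the strand of the gene. The regions are chr10:69352913-69353012 (minus strand) for Cdk1, chr7:122159335-122159434 (plus) for Plk1, chr1:191821373-191821472 (plus) for Nek2, chr2:172370571-172370670 (minus) for Aurka, chr11:117849137-117849236 (plus) for Birc5 and chr4:124936918-124937017 (minus) for Cdca8.
Cdk1: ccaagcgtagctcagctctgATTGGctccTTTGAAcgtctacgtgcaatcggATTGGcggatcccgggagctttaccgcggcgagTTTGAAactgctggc
Plk1: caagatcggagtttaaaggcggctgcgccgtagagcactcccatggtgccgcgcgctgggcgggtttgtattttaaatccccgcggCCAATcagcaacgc
Nek2: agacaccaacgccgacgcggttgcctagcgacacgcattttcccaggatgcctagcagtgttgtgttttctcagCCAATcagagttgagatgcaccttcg
Aurka: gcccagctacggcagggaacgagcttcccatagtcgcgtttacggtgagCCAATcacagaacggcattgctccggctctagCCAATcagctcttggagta
Birc5: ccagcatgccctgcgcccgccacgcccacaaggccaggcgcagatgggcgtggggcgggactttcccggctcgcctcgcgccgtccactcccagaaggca
Cdca8: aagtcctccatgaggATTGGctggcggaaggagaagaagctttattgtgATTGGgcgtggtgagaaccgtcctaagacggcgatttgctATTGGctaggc

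In the whole window of the table, from 250 bases before to 50 bases after the start, a CCAAT match was found in 5 of the 6 members (all but Birc5) and a TTTGAA match in 4 of the 6 (all but Birc5 and Nek2). Of all 32851 promoter windows of that length, 37.4% held a CCAAT match and 17.9% a TTTGAA match on either strand, and 6.95% held both, as did 4 of the 6 member windows. Counting the first transcribed base as 1, the TTTGAA matches of Cdk1 began at -71 and -15, and those of Plk1, Aurka and Cdca8 lay after the start, at 31, 33 and 14. The search took these letters alone, and a match is not evidence of a bound site.

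Values are deposited intensities on a linear scale, and log2 differences are PRDM2 knockdown minus control on quantile-normalized log2(intensity + 16), where the offset shrinks the differences of dim probe sets. Median intensity was 10.6 to 12.1 on the 6 arrays, and 55.1% to 58.2% of probe sets lay under 16, so many member values below are near the floor of these arrays. Prdm2 itself had intensities of 58.0, 51.5 and 29.0 on knockdown arrays 1 to 3, against 86.2, 73.6 and 47.1 on control arrays 1 to 3, at its brightest probe set, and none of its 3 probe sets passed the test (limma adjusted p = 0.440, 0.475 and 0.773). Control array 3 had a 5′ to 3′ ratio of 0.0992 for the Gapdh control probe sets, against 0.704 to 1.14 on the other 5 arrays, and array 3 of each group read 38.8 and 39.9 for the Dap spike, against 126 to 254 on the other 4 arrays. Of 7 myoblast markers, 1 fell (Myf5) and none rose in the knockdown, with Pax7 under the array median on every array. Their summed intensity was 4092 to 4666 in the knockdown and 4796 to 5263 in the control. Most of each sum was Vim, at 2698 to 3286 in the knockdown and 3125 to 3479 in the control. Vim was not called (limma adjusted p = 0.493), so the sums say little of the other markers. In whole-culture RNA, fewer dividing cells and less transcript per cell cannot be told apart.

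Transcripts of the mitotic kinases and passengers were lower in PRDM2 knockdown cells than in control cells for 9 of the 10 genes. By the limma test, with p-values adjusted over all 45037 probe sets and a threshold of 0.05, 11 of the 25 member probe sets fell and 0 rose, where 1.01% of all probe sets fell and 1.41% rose. Taking the brightest probe set of each gene, 9 of 10 fell, against 1.63% of all genes, and Cdc25c was the exception. The median log2 difference was -1.19 over those 10 and -0.62 over all 25 probe sets, beside -0.01 over all probe sets. The brightest probe set was picked by the mean over all 6 arrays, which favours those high in the control, and Nek2's was picked through its control arrays. The members themselves were chosen with earlier results of these data known. The 3 knockdown intensities all lay below the 3 control intensities for 17 of the 25, which was so for 7.50% of all probe sets, and no member probe set had all 3 above. For every probe set called, the exact two-sided permutation p was 0.1, the smallest that 3 arrays against 3 can give. The count of 11 changed with the array left out. It was 2, 3 and 3 without knockdown array 1, 2 and 3, and 4, 8 and 6 without control array 1, 2 and 3. With the array number as a block in the fit, the count was 2. Birc5 and Nek2 kept a called probe set in each of these fits.

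**Figure D1:**
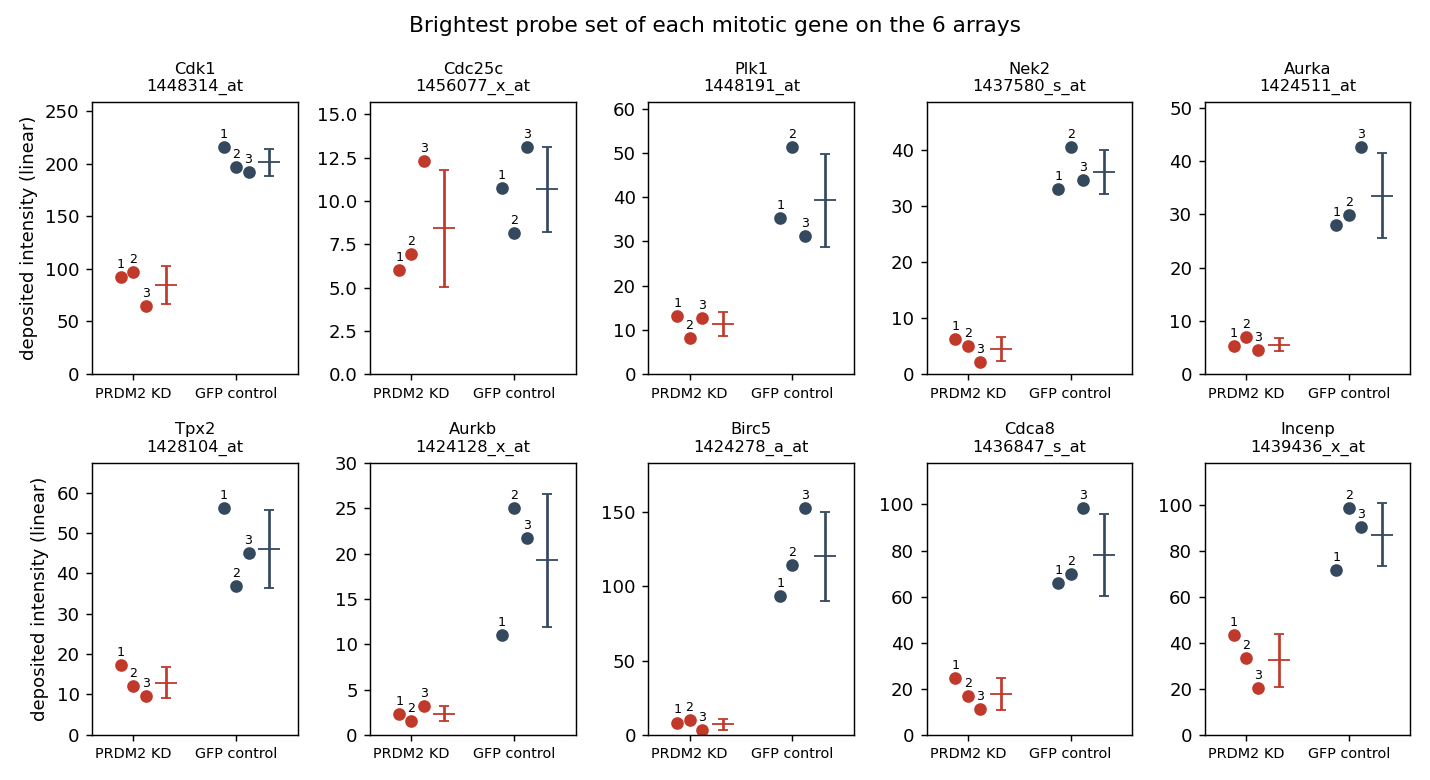
Deposited intensity (linear axis from 0) of the brightest probe set of each gene, with points numbered by array and the mean ± SD of the 3 arrays beside them, PRDM2 KD in red and GFP control in dark blue. The groups are apart for 9 genes and overlap for Cdc25c, whose knockdown array 3 reads 12.3, above control arrays 1 and 2.

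Cdk1 fell and Cdc25c did not pass. The intensities of Cdk1 were 92.7, 97.3 and 64.4 on knockdown arrays 1 to 3, against 216, 196 and 192 on control arrays 1 to 3. All knockdown arrays lay under all control arrays, and Cdk1 was well above the floor in both groups. The means were 84.8 ± 17.8 in the knockdown and 201 ± 12.7 in the control (SD, n = 3 each), which puts the knockdown at 42.1% of the control, with a log2 difference of -1.20 (95% interval -1.57 to -0.84, limma adjusted p = 0.0155). Without knockdown array 1, control array 1 or control array 3 the adjusted p was 0.0694, 0.0756 or 0.0591.

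Cdc25c was dim on every array. Its brighter probe set, 1456077_x_at, read 6.0, 6.95 and 12.3 in the knockdown and 10.7, 8.17 and 13.1 in the control, with a log2 difference of -0.13 (95% interval -0.47 to 0.21, limma adjusted p = 0.837). The groups overlapped. The other, 1422252_a_at, read 2.5, 3.74 and 5.42 in the knockdown and 7.67, 5.51 and 8.46 in the control, which do not overlap but lie under the array median throughout (log2 difference -0.22, limma adjusted p = 0.481). Neither probe set of Cdc25c was called.

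Plk1 and Nek2 fell. Plk1 read 13.1, 8.14 and 12.7 in the knockdown and 35.3, 51.3 and 31.2 in the control, where the knockdown arrays are near the array median and the control arrays clearly above it. Its means were 11.3 ± 2.74 in the knockdown and 39.3 ± 10.6 in the control (SD, n = 3 each), or 28.8% of the control (a log2 difference of -1.01, 95% interval -1.32 to -0.70, limma adjusted p = 0.0154). The call was lost without any of the 3 knockdown arrays and without control array 1, at adjusted p of 0.0525 to 0.0643.

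Nek2 was measured by 4 probe sets. The brightest, 1437580_s_at, read 6.30, 4.96 and 2.10 in the knockdown and 33.1, 40.5 and 34.6 in the control. All knockdown arrays were under the array median, all control arrays were above it, and the control arrays differed little among themselves (4.45 ± 2.14 in the knockdown, 36.1 ± 3.94 in the control; SD, n = 3 each). The log2 difference of -1.37 (95% interval -1.63 to -1.11) had a limma adjusted p of 0.00295, the smallest among the member probe sets, and stayed past the threshold when any single array was left out (0.0120 to 0.0213). The probe set 1417299_at read 2.64, 1.49 and 3.46 in the knockdown and 10.8, 15.0 and 12.3 in the control (log2 difference -0.62, limma adjusted p = 0.0219), and its call was lost in all 6 fits that leave out an array, at 0.0650 to 0.102. The remaining Nek2 probe sets were under the array median everywhere, at 2.17 to 5.84 in the knockdown and 1.45 to 4.73 in the control, and differed by 0.06 and 0.18 without passing.

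Aurka and its activator Tpx2 fell. Aurka read 5.20, 7.01 and 4.47 in the knockdown and 28.1, 29.8 and 42.6 in the control at 1424511_at. All knockdown arrays were under the array median and all control arrays above it. The means were 5.56 ± 1.31 in the knockdown and 33.5 ± 7.94 in the control (SD, n = 3 each; log2 difference -1.22, 95% interval -1.64 to -0.79, limma adjusted p = 0.0231). The other Aurka probe set, 1440129_at, lay at 1.03 to 1.45 in the knockdown and 0.616 to 1.67 in the control, a level at which no difference could be read (log2 difference 0.01).

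Tpx2 read 17.2, 12.1 and 9.51 in the knockdown and 56.2, 37.0 and 45.0 in the control at 1428104_at. That is 28.1% of the control (13.0 ± 3.94 in the knockdown, 46.0 ± 9.65 in the control; SD, n = 3 each), with no overlap of the groups and a log2 difference of -1.11 (95% interval -1.55 to -0.67, limma adjusted p = 0.0354). A second probe set annotated to the same transcript record, 1428105_at, read 5.30, 2.05 and 6.05 in the knockdown and 12.9, 20.6 and 21.2 in the control, and narrowly missed the threshold (log2 difference -0.73, limma adjusted p = 0.0713). The other pair, also of a shared record, went the other way on a single array: 1447518_at read 7.82, 7.50 and 17.6 in the knockdown and 8.06, 8.99 and 8.35 in the control, and 1447519_x_at read 7.98, 4.82 and 15.3 in the knockdown and 7.59, 6.51 and 8.16 in the control. Knockdown array 3 stands apart there, and neither passed (log2 differences 0.14 and 0.11). For the brightest probe sets of Aurka and Tpx2 the calls depended on single arrays, with adjusted p up to 0.107 without knockdown array 1 for Aurka and up to 0.141 without knockdown array 3 for Tpx2, and both were lost without any knockdown array or without control array 1, and for Tpx2 also without control array 3.

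All 4 passengers fell at their brightest probe set. Birc5 had the largest difference of all the members. It read 8.31, 10.005 and 2.99 in the knockdown and 93.4, 114 and 153 in the control, so that every knockdown array was under the array median while every control array was far above it. The means, 7.10 ± 3.66 in the knockdown and 120.2 ± 30.01 in the control (SD, n = 3 each), lie on either side of the array medians, and with the knockdown near the floor the size of the fall moves with the offset. On the scale with the offset of 16 the log2 difference was -2.60 (95% interval -3.18 to -2.02, limma adjusted p = 0.00489), and with an offset of 1 it was -4.05. The call held when any single array was left out, at adjusted p of 0.00759 to 0.0351. The interval of Birc5 lay below those of the brightest probe sets of Cdk1 and Incenp, and overlapped that of Cdca8. It also lay below those of Cdc25c, Plk1, Nek2, Aurka, Tpx2 and Aurkb. These averaged only 10.7 to 46.0 in the control, and with the offset of 16 they could not fall as far as Birc5. For them the comparison therefore follows from brightness and does not rank the falls.

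Aurkb, the kinase of the complex, was near the floor of the arrays in the knockdown and dim in the control. Its probe set 1424128_x_at read 2.34, 1.52 and 3.15 in the knockdown and 11.04, 25.05 and 21.7 in the control, with a log2 difference of -0.92 (95% interval -1.32 to -0.53, limma adjusted p = 0.0482). The other, 1451246_s_at, annotated to the same record, read 2.98, 1.58 and 1.58 in the knockdown and 8.57, 15.4 and 15.1 in the control, with a log2 difference of -0.67 (limma adjusted p = 0.0516). The knockdown and control values of both were apart, and control array 1 was the lowest control array in both, under its array median of 11.1. All control arrays of 1451246_s_at read under 16. The Aurkb probe sets lie on either side of the threshold by a small margin. Without a knockdown array the first had adjusted p of 0.151 to 0.181, without control array 2 or 3 it had 0.112 or 0.128, and without control array 1 the second passed at 0.0465.

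Cdca8 read 24.9, 17.0 and 11.2 in the knockdown and 65.8, 69.9 and 98.5 in the control at 1436847_s_at, or 22.7% of the control (17.7 ± 6.86 in the knockdown, 78.1 ± 17.8 in the control; SD, n = 3 each). The log2 difference was -1.53 (95% interval -2.10 to -0.96, limma adjusted p = 0.0292). At 1428481_s_at it read 14.7, 12.2 and 9.80 in the knockdown and 42.4, 39.1 and 64.6 in the control (log2 difference -1.21, limma adjusted p = 0.0516), and at the dimmer 1428480_at 3.38, 4.68 and 8.64 in the knockdown and 12.8, 12.8 and 19.0 in the control (log2 difference -0.52, limma adjusted p = 0.213). In all 3 the groups did not overlap and control array 3 was the highest. Without knockdown array 1, 2 or 3 or control array 1, the brightest had adjusted p of 0.0747 to 0.119, and without control array 2 or 3 the next had 0.0410 or 0.0373.

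Incenp, the scaffold, had 5 probe sets, and 2 of them fell. The brightest, 1439436_x_at, read 43.4, 33.6 and 20.3 in the knockdown and 71.9, 98.6 and 90.5 in the control, or 37.3% of the control (a log2 difference of -1.18, 95% interval -1.67 to -0.68, limma adjusted p = 0.0446). The probe set 1423092_at read 12.2, 12.9 and 17.0 in the knockdown and 25.2, 33.9 and 26.2 in the control, or 49.4% of the control (a log2 difference of -0.56, 95% interval -0.80 to -0.32, limma adjusted p = 0.0481). Both pairs of groups were apart, knockdown array 3 being the lowest knockdown array in the first and the highest in the second. Neither call held when any single array was left out, at adjusted p of 0.0674 to 0.195. The 3 dim probe sets, at 0.335 to 12.2 over both groups, did not pass, with log2 differences of -0.38, 0.01 and 0.07. The first of these, 1439252_at, read 1.57 to 2.13 in the knockdown and 4.53 to 12.2 in the control. Its groups did not overlap, but all 6 values were under 16 (limma adjusted p = 0.372).

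**Figure D2:**
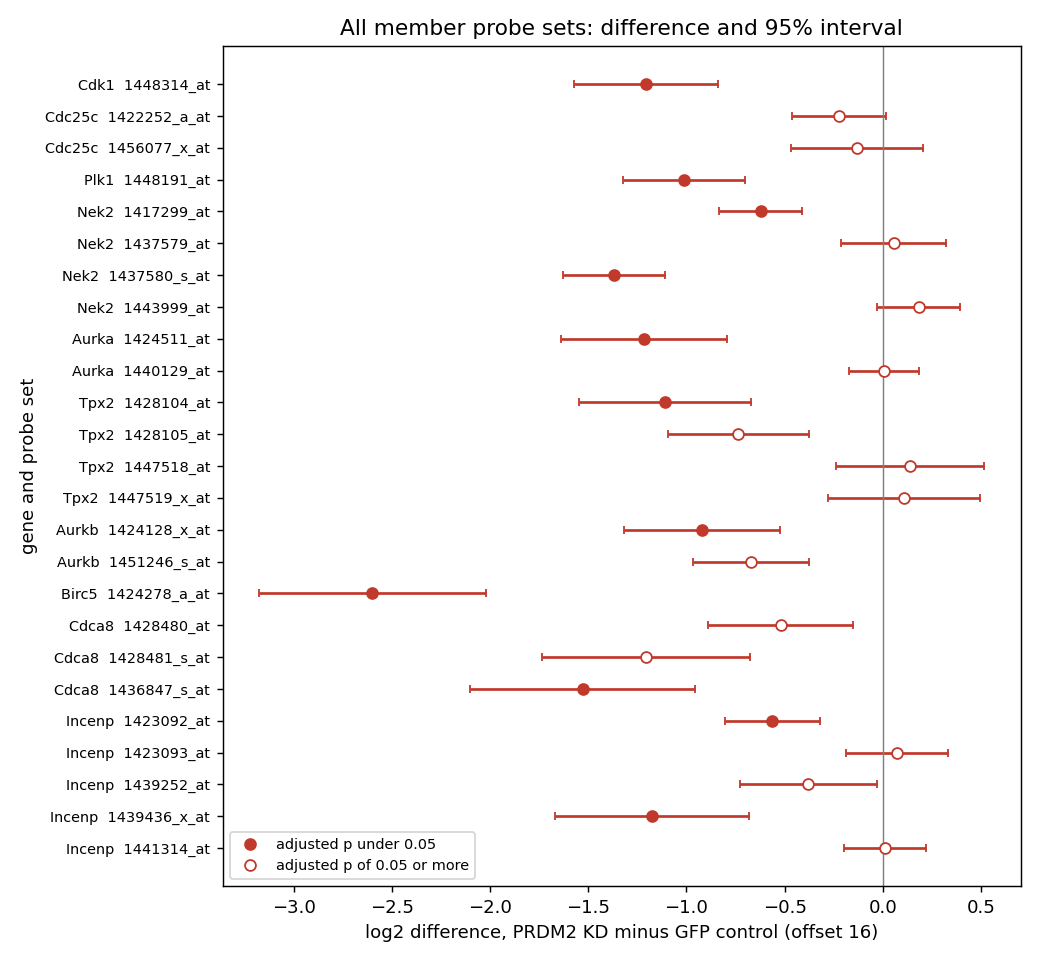
Log2 difference (PRDM2 KD minus GFP control, with the offset of 16) of all 25 member probe sets with its 95% interval from limma; filled points have an adjusted p under 0.05. The 11 filled points run from -2.60 for Birc5 to -0.56 for Incenp, and the intervals of the 7 probe sets with positive differences all cross 0.

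Among the 7 genes with several probe sets, 6 had both called and uncalled ones, and Cdc25c had none called. Names ending in x_at mark probe sets of which some probes match other transcripts too, and those ending in s_at are shared by several transcripts, which touches the brightest probe sets of Cdc25c, Nek2, Aurkb, Cdca8 and Incenp.

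**Figure D3:**
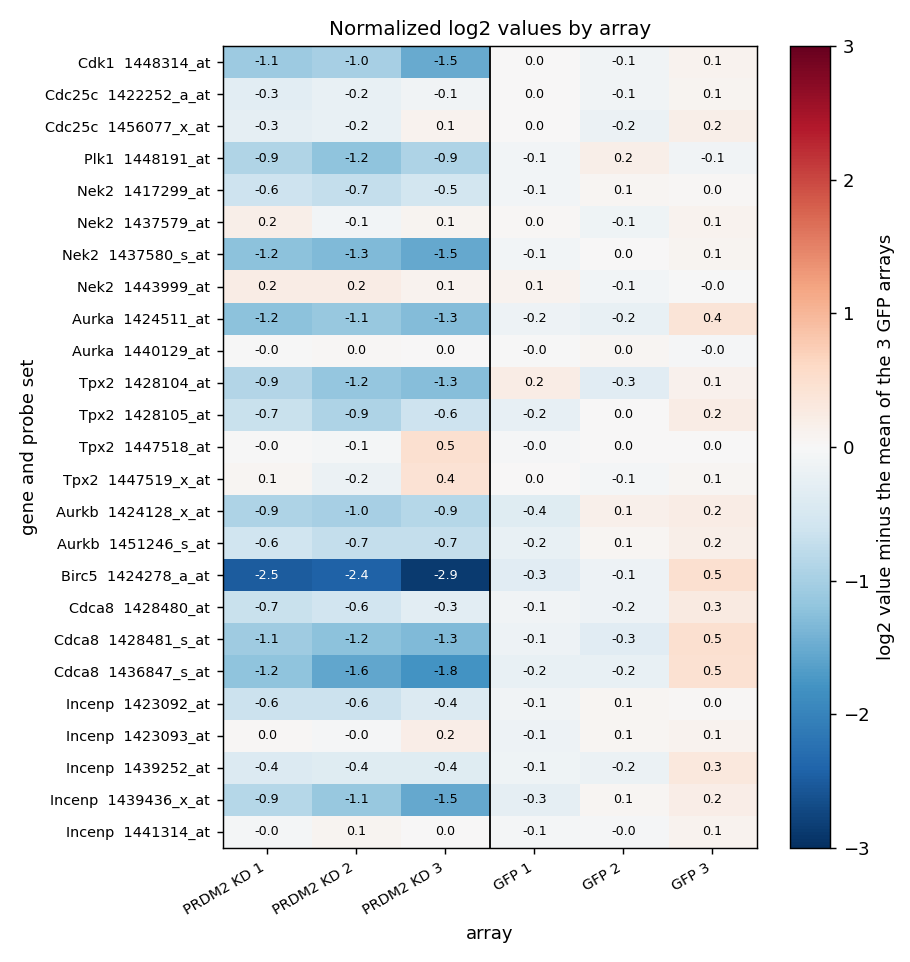
Quantile-normalized log2 value of each member probe set on each array, minus the mean of the 3 GFP arrays for that probe set (blue lower, red higher), with the PRDM2 KD arrays left of the line. The Birc5 row is at -2.4 to -2.9 on the knockdown arrays, and the median of all 25 rows is -0.63, -0.70 and -0.55 on knockdown arrays 1 to 3, against -0.09, -0.07 and 0.10 on control arrays 1 to 3.

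The members moved unevenly over the arrays of a group. Knockdown array 3 was the lowest knockdown array for 7 of the 10 brightest probe sets, and control array 1 the lowest control array for 6. The summed intensity of the 10 was 219, 199 and 143 on knockdown arrays 1 to 3 and 621, 671 and 722 on control arrays 1 to 3. Between the arrays numbered 1 and 2 alone the median difference of these 10 was -0.99, and between the arrays numbered 3, which had the lower spike signal, it was -1.62, from 1 array per group. Over all 25 member probe sets the same medians were -0.62 and -0.68. Without control array 3, the array of low 5′ to 3′ ratio, the median over all 25 probe sets was -0.59. Birc5 differed by -2.22 and -3.36, Cdk1 by -0.998 and -1.62, and Plk1 by -1.10 and -0.83 in the arrays numbered 1 and 2 and in those numbered 3. With the spike signal, low or high, as a block in the fit, 7 member probe sets of 6 members fell. The probe sets of Tpx2, Aurkb, Cdca8 and Incenp called without the block had limma adjusted p of 0.0529 to 0.0774 with it. Cdca8 kept a call through 1428480_at, which passed only with the block (limma adjusted p = 0.0478). Without normalization between arrays the probe sets of Aurkb and Incenp called in the main fit had limma adjusted p of 0.0531 to 0.0766. With the arrays numbered 1 and 2 alone, 2 member probe sets fell past the threshold, as 64 of all probe sets did.

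Genes that work with the members were counted in 6 lists, taking the brightest probe set of each gene. The lists were chosen with earlier results of these data known, so their counts are no separate support for the fall of the members. Of 92 measured genes 19 fell and 0 rose, where 1.63% of all genes fell and 2.23% rose, and the falls were spread unevenly over the lists. The count of 19 became 8, 11 and 11 without knockdown array 1, 2 and 3, and 9, 16 and 15 without control array 1, 2 and 3. Substrates of the mitotic kinases held 10 of the 19 (10 of 14 measured, median log2 difference -1.29). Among them Mki67, the Ki-67 protein that coats mitotic chromosomes, fell by 2.53 on the log2 scale (limma adjusted p = 0.00945, and 0.0622 and 0.0580 without knockdown array 1 and 3). Cenpa, the centromeric histone, averaged 17.9 ± 6.45 in the knockdown and 104 ± 17.3 in the control (SD, n = 3 each; log2 difference -1.88, limma adjusted p = 0.0113, and 0.0571, 0.0512 and 0.0529 without knockdown array 2, knockdown array 3 and control array 1). Nusap1, a spindle microtubule binder, and Bub1b, the checkpoint protein BubR1, fell by 1.61 and 1.59 on the log2 scale. The kinesins Kif2c and Kif11 differed by -0.12 and -0.52 without passing (limma adjusted p = 0.778 and 0.104).

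Partners of Plk1, Aurka and the passenger complex followed, with 6 of 15 lower, 0 higher and a median of -0.38. Bub1, the kinase whose histone mark helps recruit the passengers to centromeres, averaged 2.77 ± 1.66 in the knockdown and 50.8 ± 5.93 in the control (SD, n = 3 each; log2 difference -1.87, limma adjusted p = 0.00209). Cenpf, a kinetochore protein, fell by 1.83, Sgo2a, a protector of centromeric cohesion, by 1.15, and Tacc3, an Aurora A substrate on the spindle, by 1.13 on the log2 scale. Sgo2a missed the threshold without knockdown array 1 or control array 1 or 3 (limma adjusted p = 0.0604 to 0.0795), and Tacc3 without any knockdown array or control array 1 (0.0616 to 0.109). Bora and Ajuba, activators of Aurora A, had log2 differences of -0.03 and 0.04 without passing, with groups that overlapped and signs that turned in some fits.

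Among partners and regulators of Cdk1, 2 of 12 fell, 0 rose and the median was -0.29. The called genes were the cyclins Ccnb2 and Ccna2. Ccnb2, cyclin B2, read 4.79, 3.02 and 3.45 in the knockdown and 54.3, 68.7 and 66.0 in the control (log2 difference -2.04, limma adjusted p = 0.00113), and Ccna2, cyclin A2, fell by 1.31 on the log2 scale (limma adjusted p = 0.00478). Ccnb3, cyclin B3, named here after its values were seen, averaged 3.78 ± 0.828 in the knockdown and 4.06 ± 1.53 in the control (SD, n = 3 each), with groups that overlapped and no call (log2 difference -0.02, limma adjusted p = 0.981). No probe set carries Ccnb1 as its single symbol, so cyclin B1 was not counted.

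In the other lists few or no genes passed. Of 18 relatives of the members outside the list, from the Plk, Aurora, Nek, Cdk and BIR families, 1 fell and 0 rose, with a median of 0.02. The exception was Plk4, the kinase of centriole duplication, with 26.9 ± 10.5 in the knockdown and 69.2 ± 9.93 in the control (SD, n = 3 each; log2 difference -1.06, limma adjusted p = 0.0494). Plk4 missed the threshold without normalization between arrays (0.0779), with median centring (0.0673) and without any array other than knockdown array 3 (0.0823 to 0.180). The stress-responsive kinases Plk2 and Plk3 differed by -0.36 and 0.15 without passing. None of 17 phosphatase subunits and inhibitors that oppose the mitotic kinases passed by limma (median -0.00, with 2 lower and 3 higher at an unadjusted p under 0.05). The catalytic subunits Ppp1ca and Ppp1cb differed by 0.22 and -0.01, and the sign of the second turned with median centring or no normalization. None of 16 transcription factors of mitotic genes passed by limma either (median -0.02, with 2 lower and 1 higher at an unadjusted p under 0.05). At that unadjusted limma p, 1324 of all 18193 genes were lower and 1602 higher, taking 1 probe set of each. Foxm1, an activator of G2 and mitotic genes, read 8.93 ± 1.70 in the knockdown and 12.5 ± 3.08 in the control, and Mybl2 (B-Myb) 5.84 ± 0.978 in the knockdown and 6.18 ± 2.53 in the control (SD, n = 3 each), close to the array median or below it.

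**Figure D4:**
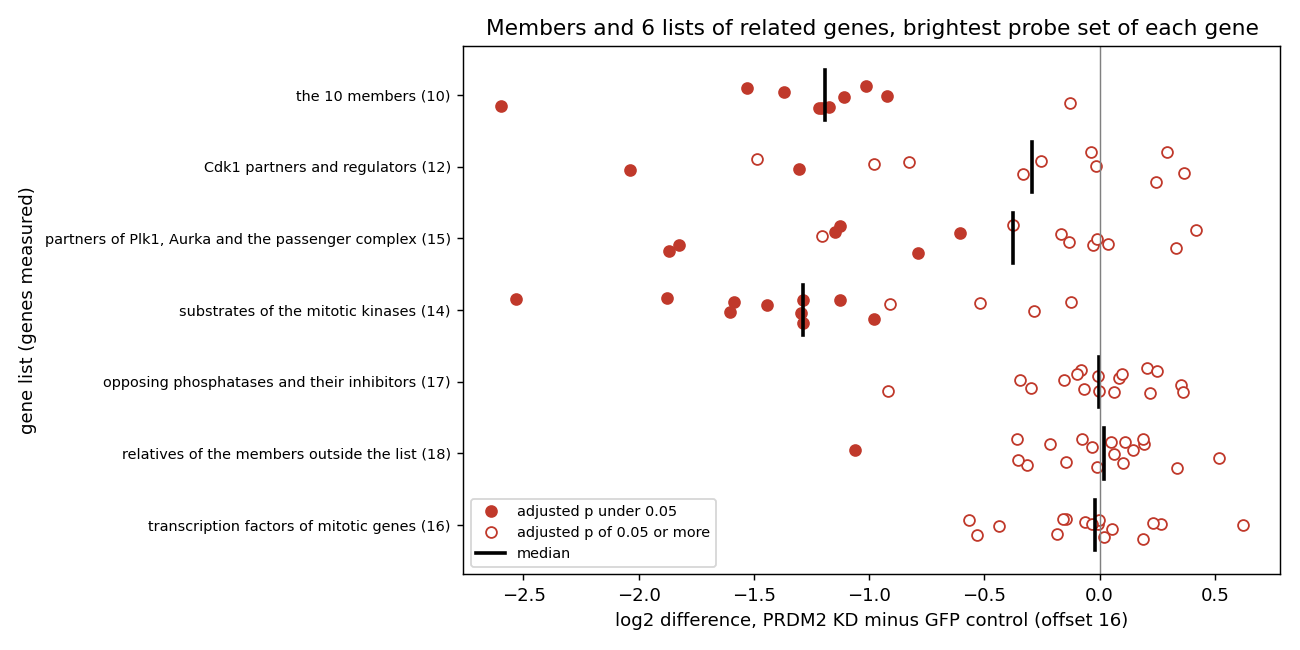
Log2 difference (PRDM2 KD minus GFP control, with the offset of 16) of the brightest probe set of each gene, for the 10 members and for 6 lists of related genes, with the number of genes measured in parentheses; filled points have an adjusted p under 0.05 and black bars are medians. The medians are -1.19 for the members and -1.29 for the substrates, and -0.00, 0.02 and -0.02 for phosphatases, relatives and transcription factors.

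Markers of differentiated muscle moved with the groups in the other direction. Of 10 such genes 9 rose, 0 fell and Ckm did not pass, and their summed intensity was 7938 to 9953 on the knockdown arrays and 268 to 490 on the control arrays, with no marker at 0 on any array. Their part in the lower signal of the mitotic genes was not tested. None of the measured markers of adipocytes (3), immune cells (5) or endothelium (5) passed by limma, and none did at an unadjusted p under 0.05. Summed intensities of these lists were 15.2 to 23.4, 54.2 to 55.7 and 15.4 to 23.1 in the knockdown and 9.08 to 20.0, 53.6 to 104 and 15.0 to 28.4 in the control, for adipocytes, immune cells and endothelium in that order.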

How the data were processed

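Expression was measured on 6 Affymetrix mouse arrays, 3 per group, with biotin-labelled cRNA made from 8 µg total RNA, per the labels' protocols. The authors deposited, for every array, a linear intensity of each of 45101 probe sets. The submitters' processing notes name GCOS and PLIER, with no version. The sources used here do not state any background correction or scaling. No columns of unlisted samples were present, and the tests omitted 64 control probe sets.

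Intensities were transformed as log2(intensity + 16) and quantile normalized, because the interquartile range differed by 15.0% between arrays. Both groups were compared with lmFit and eBayes in limma 3.58.1 (R 4.3.3), with Benjamini-Hochberg adjustment over 45037 probe sets, and called at an adjusted p under 0.05. No filter on low values was applied. The brightest probe set of a gene is that with the highest mean over the 6 arrays. Gene names are those of the platform annotation, in which 34945 probe sets have 1 symbol, 932 have more and 9160 are unnamed. All member probe sets are named. Of each list, the up to 4 called genes of largest difference and the first 2 as listed are named. Members, lists and tests were chosen with earlier results of these data known. The number of arrays limits the precision, and the fit was tested on simulated data.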

Additional observations from a re-analysis of the deposited data

How the results depend on the processing

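The main counts were 11 member probe sets, 9 members and 19 genes of the pathway lists that fell. They were 5, 4 and 12 with an offset of 64, 2, 2 and 5 with the arrays numbered 1 and 2 alone, and 0, 0 and 4 with ordinary statistics in place of eBayes, where 15 member probe sets were lower at an unadjusted p under 0.05 with limma's linear model. With eBayes, 16 of the 25 member probe sets and 2334 of all 45037 were lower at an unadjusted limma p under 0.05. With the spike group as a block, 7 member probe sets fell. Leaving out each array gave 2 to 8 member probe sets, 2 to 7 members and 8 to 16 genes of the lists. The median of -0.62 over the member probe sets became -1.44 with an offset of 1, -0.22 with an offset of 64, -1.18 over the 13 that passed the filter on dim probe sets, -0.53 with array weights and -1.19 with 1 probe set per gene. The filter on dim probe sets used the larger group mean of each probe set, so members bright only in the control passed it. Its median and counts are therefore no separate support for the fall. No normalization, median centring, an offset of 1, the filter on dim probe sets, eBayes with trend and robust, array weights and 1 probe set per gene kept these counts within 1.5 times. Of these, the filter and 1 probe set per gene tested only 13 and 10 member probe sets. Both favour probe sets high in the control, so neither is separate support. Birc5 and Nek2 (1437580_s_at) were called in 17 of 18 alternatives, all but ordinary statistics, where their adjusted p was 0.0906 and 0.0505. The brightest probe sets of Cdk1, Plk1, Aurka, Cdca8, Tpx2, Aurkb and Incenp were called in 12, 11, 10, 9, 8, 6 and 5 of 18. Nek2 1417299_at was called in 7 of 16 and Incenp 1423092_at in 1 of 17.

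With the replicate number as a block, 2 member probe sets (2 members) and 11 genes of the lists fell. Same-numbered arrays deviated together with correlations of 0.364, 0.0961 and 0.00549, and 3 of 6 arrays correlated best with their own number. Both arrays numbered 3 had the low Dap spike. These values do not settle whether the numbers mark pairs. The labels do not say so, and the main fit did not treat them as pairs.

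All called members stayed lower under every alternative run. Signs turned only for probe sets that were not called. Leaving out each array gave log2 differences of -0.0138 to 0.128 for Nek2 1437579_at, -0.0135 to 0.0305 for Aurka 1440129_at, -0.0346 to 0.235 for Tpx2 1447518_at, -0.0568 to 0.246 for Tpx2 1447519_x_at, -0.00131 to 0.123 for Incenp 1423093_at and -0.0184 to 0.0629 for Incenp 1441314_at. With the arrays numbered 1 and 2 alone, Aurka 1440129_at and the Tpx2 probe sets differed by -0.0132, -0.0277 and -0.0266. The pathway genes Bora, Ajuba, Ppp1ca, Ppp1cb, Plk3 and Mybl2, none of them called, ranged from -0.131 to 0.0952, -0.0836 to 0.157, -0.0118 to 0.409, -0.161 to 0.122, -0.0101 to 0.242 and -0.0867 to 0.0761 when each array was left out. Bora differed by 0.0195 with array weights, Ppp1cb by 0.0479 without normalization, Ppp1cb and Mybl2 by 0.0657 and 0.00121 with median centring, Mybl2 by 0.0130 with an offset of 1, and Kif2c and Ppp1ca by 0.00361 and -0.102 with the arrays numbered 1 and 2 alone. Over all probe sets 457 fell and 637 rose, against 48 and 109 with ordinary statistics, 64 and 120 with 4 arrays, 239 and 345 with the block, 867 and 1120 with array weights, and 141 to 397 and 245 to 509 without an array.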
